A study of Mus musculus with 16 samples.

Results

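Ttc39c and Keg1 are genes that the study named for binding of the retinoid X receptor alpha (RXRα) and of RNA polymerase II that differed between male and female mouse livers, and their RNA was followed here in all 4 groups of sex and genotype. The genes were selected by those binding scores and, for Keg1, by the RNA levels of WT livers as well, which were taken to be the WT livers used here. Every probe assigned to either gene was taken, which gave 4 of the 45281 probes on the array (3 for Ttc39c and 1 for Keg1) and 2 of the 19057 genes with a probe of their own. Liver RNA came from mice of 2 months of age, on 1 Illumina mouse Ref-6 v2 bead array per sample, from 3 males and 5 females labelled Wild-type (WT) and from 3 males and 5 females labelled hs-RXRa-Dex4-/- (hs-RXRα KO), in which the deletion is restricted to hepatocytes, so that other liver cells keep the gene. For mice with a hepatocyte-specific RXRα deletion, the paper names the DNA-binding domain as the part removed. The Dex4 of the label reads as exon 4, so KO is taken here as a partial deletion, and any remaining protein was not measured. The promoter that drives the deletion and any pooling of animals are not given in the sources used here. The labels do not state that samples of a group came from separate cohorts or days, and the p-values below measure the spread between these samples. The question asked of both genes was whether their male-female difference in RNA needs intact RXRα in hepatocytes.

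RXRα is a nuclear receptor that binds DNA as a partner of other nuclear receptors, such as those for bile acids, oxysterols, fatty acids and xenobiotics, and it is abundant in hepatocytes. Many genes of the mouse liver differ between the sexes, largely through growth hormone, which is released in pulses in males and more evenly in females, and through the transcription factor STAT5 that it activates. Ttc39c encodes a protein of the tetratricopeptide repeat family, whose repeats serve as surfaces for contact between proteins. Keg1 (kidney expressed gene 1) encodes a relative of glycine N-acyltransferase, the enzyme family that joins acyl groups carried on coenzyme A to glycine.

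The position of the probes within the transcripts (coding exon or UTR) is not known here. A RefSeq promoter window was at hand for Keg1, on chromosome 19, and the 250 bases before its start (GRCm38.p6, chr19:12695540-12695789, plus strand) are shown because 2 copies of the STAT5 motif TTCNNNGAA, in capitals, lie in them.
Keg1 promoter: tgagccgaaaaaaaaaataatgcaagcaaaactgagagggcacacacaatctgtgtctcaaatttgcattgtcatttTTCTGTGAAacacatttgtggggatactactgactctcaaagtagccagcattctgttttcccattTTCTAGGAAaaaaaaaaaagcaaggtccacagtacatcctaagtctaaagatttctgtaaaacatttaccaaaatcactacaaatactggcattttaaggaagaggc
The first bases of the copies, TTCTGTGAA and TTCTAGGAA, lie 173 and 107 bases before the start. The motif is its own reverse complement, so both strands read alike. Of 32851 promoter windows of 300 bases, 8.3% held at least 1 copy and 0.457% held 2 or more. The Keg1 window had no AGGTCA, the half-site bound by RXR heterodimers, which 16.3% of all windows held on either strand, and no TATAAA, which 13.6% held. The windows of the neighbouring relatives Glyat and Gm4952 held none of the 3 motifs. These matches describe the letters of the windows and were not set against binding data.

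Some facts of the whole set bear on what follows. Of the tested genes, 8424 to 8741 were detected on each array, and an array correlated with the rest of its group at 0.9523 (female WT 4) or above on average. The brightest probe of Xist, which coats the inactive X chromosome in female cells, was above the detection threshold in each of 10 females and in 0 of 6 males. The probe for Rxra itself read 47.7 to 109 over all 16 arrays, with no fall in KO livers (KO minus WT 0.33 in males, limma adjusted p = 0.546, and 0.17 in females, adjusted p = 0.817), and since its position relative to the deleted part of the gene is not known, it does not check the deletion. The 7 hepatocyte markers, among them Alb, Apoa1 and Ttr, were all detected, with summed intensities of 103600 to 127600.

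In WT livers, Ttc39c RNA was about 5-fold higher in males than in females. Its brightest probe (ILMN_1250576) gave normalized intensities of 3125, 2853 and 3462 in the WT males 1, 2 and 3. The WT females 1 to 5 gave 536, 749, 670, 550 and 585. No female array came near the lowest male array, and 5.58% of the 9906 tested genes had every WT male above every WT female. The means were 3147 ± 305 (SD, n = 3) and 618 ± 89.9 (SD, n = 5), a log2 difference of 2.33 (SE 0.213), or 5.01-fold. These livers were taken as the ones in which the genes were known to differ, so this difference is given as a description with no test.

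Keg1 RNA showed a like pattern in WT livers. Its single probe (ILMN_2860915) gave 13560, 11810 and 14180 in the WT males 1, 2 and 3. The WT females 1 to 5 gave 3175, 2066, 1838, 3244 and 2535. Here too the sexes did not overlap. Males averaged 13190 ± 1230 (SD, n = 3) and females 2572 ± 635 (SD, n = 5), which is a log2 difference of 2.38 (SE 0.26), or 5.21-fold, again as a description.

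**Figure D1:**
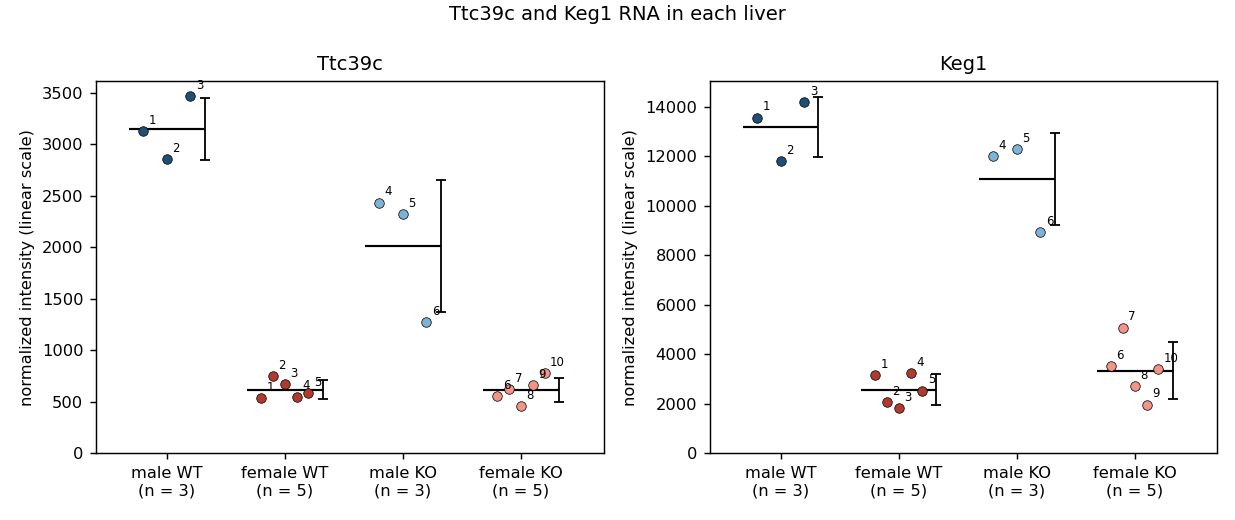
Normalized intensity (linear axis from 0) of Ttc39c (left, probe ILMN_1250576) and Keg1 (right, probe ILMN_2860915) on each of the 16 arrays, 1 point per liver with its replicate number, the mean as a line and the SD as a bar. In both genotypes all males lie above all females. Male KO 6, at 1274 for Ttc39c and 8945 for Keg1, is the lowest male in both panels.

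The male excess of both genes was also present in hs-RXRα KO livers. The study's selection of the genes did not use these arrays, although earlier results of them were known when the genes were taken up here. Ttc39c read 2433, 2324 and 1274 in the KO males 4, 5 and 6. The KO females 6 to 10 read 555, 623, 462, 659 and 780. The male KO mean was 2011 ± 640 (SD, n = 3) and the female KO mean 615.9 ± 119 (SD, n = 5), and all 3 males lay above all 5 females, though male KO 6 stood well below the other 2. The log2 difference was 1.65 (SE 0.213), or 3.13-fold with a 95% confidence interval of 2.29 to 4.28, and it passed the threshold of 0.05 (limma, adjusted p = 0.000188).

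Keg1 read 12020, 12290 and 8945 in the KO males 4, 5 and 6. The KO females 6 to 10 read 3535, 5079, 2734, 1968 and 3392. The lowest male lay above the highest female, female KO 7, and the females spread more widely than for Ttc39c. The means were 11090 ± 1860 (SD, n = 3) and 3342 ± 1150 (SD, n = 5). The log2 difference was 1.78 (SE 0.26), or 3.43-fold with a 95% confidence interval of 2.34 to 5.03 (limma, adjusted p = 0.000627).

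Both genes were thus called higher in KO males, against a background of 0.989% of the 9906 tested genes called in that direction (98 genes), and 6.63% of the tested genes had all KO males above all KO females. By the size of the KO sex difference, Keg1 ranked 31st and Ttc39c 41st of 9906, and both exceeded the median of 1.32 (log2) among the 98 genes called. An exact two-sided permutation test over the KO arrays gave p = 0.0179 for each gene, the smallest value that 56 arrangements allow. Under the methods' t-test, an equal-variance test of each gene by itself on the same values, neither gene passed after adjustment (adjusted p = 0.0686 for Ttc39c and 0.0812 for Keg1). Of the 160 genes (1.62% of those tested) higher in WT males, 48 were also called higher in KO males, which is 30% of the WT list and 49% of the 98 KO calls.

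In bulk liver, fewer cells of a type and less RNA per cell cannot be told apart. The summed intensity of the 7 markers of sinusoidal endothelium, 6 of them tested, was higher in females of both genotypes, at 7172 to 8252 in WT males and 8519 to 10440 in WT females, and at 7564 to 8661 in KO males and 9298 to 10560 in KO females. Clec4g held most of each sum, with group means of 6031 to 7604. Its sex difference did not pass in KO livers (-0.29, limma adjusted p = 0.363). Kdr was detected on no array. Of the 6 tested markers, Pecam1, an adhesion molecule of endothelial cells, was the 1 called in KO livers (male minus female -0.79, adjusted p = 0.0331). It was higher in females, where 1.39% of all tested genes were. Stab2 ran the other way in KO livers (0.36, adjusted p = 0.667). The 8 stellate cell markers summed to 6921 to 7482 and 8610 to 10390 in WT males and females, and to overlapping ranges of 7690 to 8886 and 8457 to 10890 in KO livers. Of the erythroid list, 2 of 4 genes had a probe, and they ran opposite ways in KO livers. Alas2, the first enzyme of heme synthesis in red cells, was higher in KO males (1.11, limma adjusted p = 0.0377), where 0.989% of all tested genes were. Hba-a1, which held most of the sum, averaged 13630 in KO males and 16000 in KO females (-0.24, adjusted p = 0.687). The erythroid sums overlapped (12460 to 16120 in KO males and 14670 to 17750 in KO females). The part of these markers in the sex differences of Ttc39c and Keg1 was not tested. Because Keg1 is named for the kidney, 7 kidney tubule markers were read as well. Umod, Slc34a1 and Kap were detected on no array, and the 7 summed to 184.6 to 261.5 in WT males, 268.6 to 367.9 in WT females, 362.6 to 505.2 in KO males and 198.7 to 351.8 in KO females. Slc12a3, the thiazide-sensitive cotransporter, had group means of 186.8 to 306.6, and its KO sex difference was -0.10 (adjusted p = 0.863). Lrp2, an endocytic receptor of the proximal tubule, averaged 141.6 ± 19.9 (SD, n = 3) in KO males and was detected in no other group.

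KO and WT livers were then compared within each sex. In males, the KO values of Ttc39c all lay below the WT values, as they did for 11.3% of the tested genes. The log2 difference was -0.69 (SE 0.238, 95% confidence interval -1.20 to -0.19), that is 0.618 of the WT level, and it did not pass after adjustment (limma, adjusted p = 0.179), in a comparison in which 0.646% of the genes were called lower. The size of this difference rested in good part on male KO 6, without which it was -0.40. Without male KO 4 it was -0.86. A fit that weights arrays by their quality gave -0.81 and an adjusted p of 0.0147. The exact permutation p was 0.1, the smallest that 3 against 3 arrays allow. In females the Ttc39c ranges overlapped almost wholly, and the log2 difference was -0.01 (SE 0.184, 95% confidence interval -0.41 to 0.38, limma adjusted p = 0.986).

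For Keg1, male KO and male WT values overlapped, with male KO 4 and 5 above male WT 2. The log2 difference in males was -0.26 (SE 0.29, 95% confidence interval -0.88 to 0.36, limma adjusted p = 0.71). In females the KO mean was the higher one, by 0.34 (SE 0.225, 95% confidence interval -0.13 to 0.82, adjusted p = 0.632), with overlapping values. The intervals leave room for changes in either direction for Keg1 in each sex.

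The sex difference itself was smaller in KO than in WT livers for both genes, but the difference between the genotypes did not pass the test. For Ttc39c the interaction of sex and genotype was -0.68 (SE 0.301, 95% confidence interval -1.32 to -0.04, limma adjusted p = 0.564). It was -0.38 without male KO 6 and -0.85 without male KO 4. For Keg1 it was -0.60 (SE 0.367, 95% confidence interval -1.38 to 0.18, limma adjusted p = 0.646). Over all genes, 9 of 9906 (0.0909%) were called for the interaction. These values contain the WT difference, which was known when the genes were taken up.

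**Figure D2:**
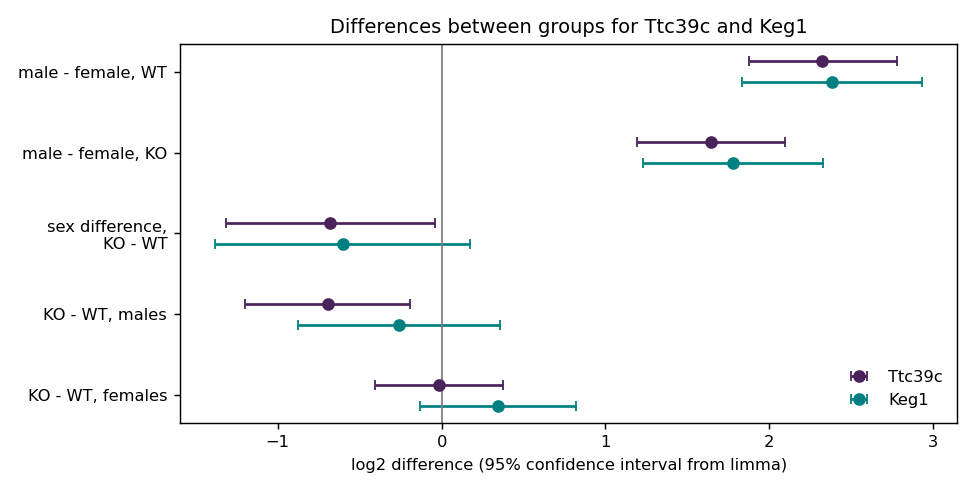
Log2 differences of Ttc39c and Keg1 from limma with 95% confidence intervals, for the sexes (male minus female) within each genotype, for the change of that difference, and for KO minus WT in each sex. The KO sex differences (1.65 and 1.78) lie clear of 0, and the KO minus WT intervals include 0 except for Ttc39c in males; the WT sex differences are shown as a description.

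The other probes of Ttc39c also read higher in males than in females of both genotypes. Probe ILMN_1216182 read 2474, 2255 and 2513 in WT males, and 331, 485, 484, 466.1 and 557 in WT females. In KO livers it read 1573, 1844 and 989 in males, and 375, 393, 353, 438 and 362 in females. Its male-female difference was 2.36 in WT (description) and 1.85 (SE 0.195) in KO livers, where it passed with each probe as its own row (limma, adjusted p = 1.79e-05). Its KO minus WT difference in males was -0.76 (adjusted p = 0.108).

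The third probe, ILMN_1216935, was dim. It read 101, 131 and 108 in WT males and 57.9, 76.8 and 27.5 in KO males. On none of the 10 female arrays was it above the detection threshold of 20.9 to 21. Against that threshold, the males were at least 5.39-fold higher in WT and at least 2.37-fold higher in KO livers. The probe passed the filter on dim probes through the males alone, so no test of its sex difference is given. KO minus WT in males was -0.95 (limma, adjusted p = 0.0759). Male KO 6 was the lowest KO male for each of the 3 Ttc39c probes and for Keg1.

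**Figure D3:**
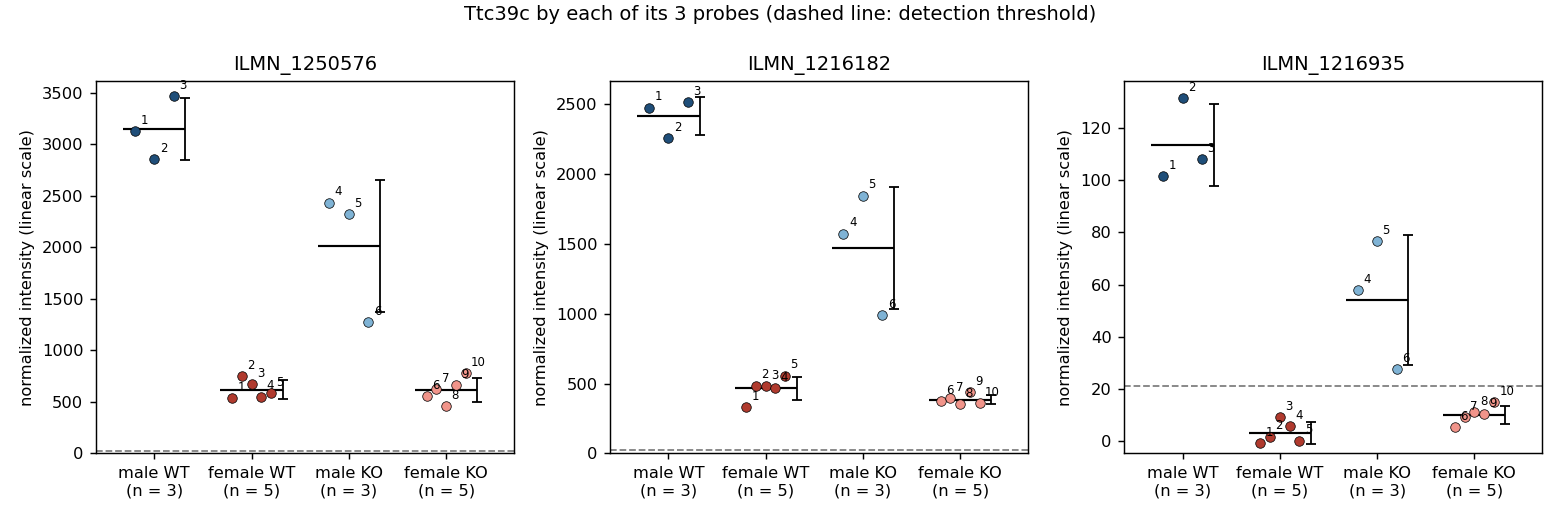
Normalized intensity (linear axes, each probe on its own scale) of the 3 Ttc39c probes on each array, with group means as lines, SDs as bars and the detection threshold dashed. For each probe the males lie above the females in both genotypes, and the third probe was not detected in any female.

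The relatives of Ttc39c were read beside it. Of the 4 genes of the TTC39 family, 3 were tested, and Ttc39d was detected on no array. Ttc39a RNA averaged 66.6 ± 30.2 and 82.8 ± 19.5 (SD) in WT males (n = 3) and females (n = 5), and 273.6 ± 87.3 and 225.4 ± 21.6 in KO males (n = 3) and females (n = 5). It rose with the deletion in both sexes, by 1.83 (limma, adjusted p = 0.00143) in males and 1.31 (adjusted p = 0.00203) in females, where 0.919% and 1.29% of the tested genes rose. Its KO sex difference was 0.22 (adjusted p = 0.718). Ttc39b differed by 0.18 between the sexes in KO livers (adjusted p = 0.769) and by 0.49 between KO and WT males (adjusted p = 0.366). The list median of the KO sex difference was 0.22, against 0.01 over all genes.

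Of 11 genes for glycine N-acyltransferases and other acyl conjugation enzymes, 8 were tested. Keg1 was the member called higher in KO males, where 0.989% of all tested genes were. Acnat2, an acyl-CoA:amino acid N-acyltransferase, was called higher in KO females, where 1.39% were. The list median was 0.27. Glyat, the glycine N-acyltransferase of mitochondria, averaged 13120 ± 1080 (SD, n = 3) in KO males and 10700 ± 1110 (SD, n = 5) in KO females, a log2 difference of 0.30 (limma, adjusted p = 0.42). Gm4952, a further Glyat relative on chromosome 19, differed by 0.74 (adjusted p = 0.276), and Baat, which conjugates bile acids to taurine and glycine, by 0.10 (adjusted p = 0.806).

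Acnat2 ran the other way from Keg1. It averaged 408.4 ± 63.8 (SD, n = 3) in WT males and 2524 ± 960 (SD, n = 5) in WT females. In KO livers the male mean was 1357 ± 215 (SD, n = 3) and the female mean 2730 ± 580 (SD, n = 5), a male minus female difference of -0.99 (limma, adjusted p = 0.0375). It rose in KO males by 1.69 (adjusted p = 0.00279), where 0.919% of the tested genes rose. In females its KO minus WT difference was 0.15 (adjusted p = 0.858). The change of its sex difference was 1.54 and did not pass (adjusted p = 0.174).

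**Figure D4:**
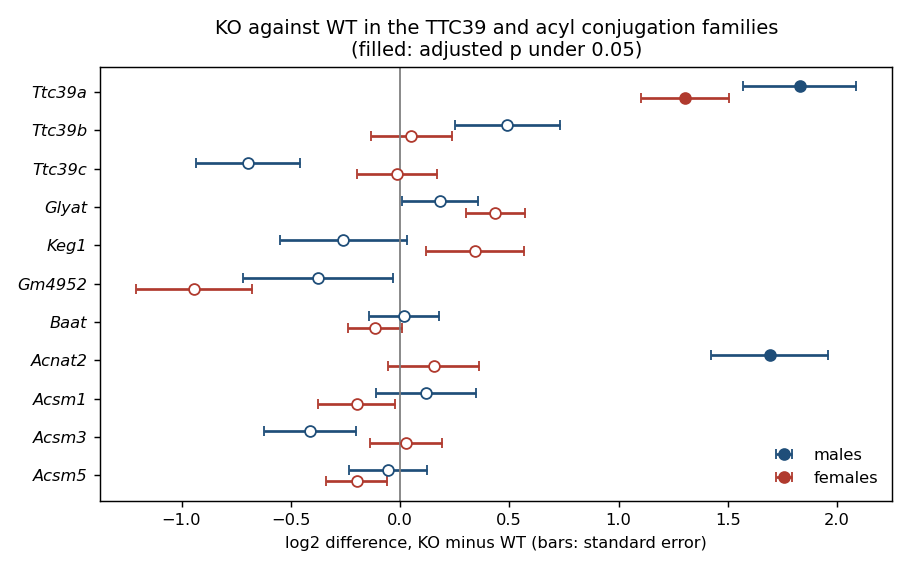
KO minus WT log2 differences with standard errors for the 3 tested genes of the TTC39 family and the 8 tested acyl conjugation genes, in males and females, filled where the limma adjusted p is under 0.05. Ttc39a rose in both sexes (1.83 and 1.31) and Acnat2 in males (1.69), while Ttc39c and Keg1 did not pass in either sex.

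A list of genes taken as male-biased in mouse liver gave a frame for these values. It includes Egfr, which the paper places, with Ttc39c, among male genes not recognized before. Of the 21 genes on the list 20 were tested, and 16 were called higher in KO males, where 0.989% of all tested genes were. Of these 16, 11 were detected on every array. The other 5 (Cyp4a12a, Cyp4a12b, Elovl3, Susd4 and Moxd1) were detected on fewer than 3 female arrays. They passed the filter through the males, so their calls carry no test of the sex difference. The median KO difference was 2.28, or 2.17 with Elovl3 and Moxd1 (no KO female detected) at their lower bounds, against 0.01 over all genes. Among the members detected on every array, the differences reached 4.28 for C6, a terminal complement component (limma adjusted p = 2.93e-08), 4.20 for Cyp7b1, an oxysterol hydroxylase (adjusted p = 9.15e-05), and 3.12 for Mup21, a major urinary protein (adjusted p = 1e-06). Cyp4a12a, a fatty acid omega-hydroxylase, averaged 9975 ± 996 (SD, n = 3) in KO males and was detected in 1 of 5 KO females, as was Cyp4a12b, at 1274 ± 360 (SD, n = 3) in KO males. Hsd3b5, Slco1a1, Mup20 and Cyp2u1 did not pass in KO livers, with differences of 2.28, 1.98, 0.35 and 0.37. Hsd3b5, a steroid dehydrogenase of male liver, rose in KO females by 4.79 (adjusted p = 0.000125), where 1.29% of the tested genes rose. The change of the Hsd3b5 sex difference was -4.59 (adjusted p = 0.0818). Elovl3, a fatty acid elongase, was detected in no female of either genotype. It passed the filter through the males alone, so no test of its sex difference or of the change of that difference is given. In KO males, where 0.646% of the tested genes fell, Elovl3 fell by 2.92 (adjusted p = 0.000287), from 588.1 ± 33.4 to 79.3 ± 68.3 (SD, n = 3 each). The list was written with WT results known, so its direction is no independent evidence.

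**Figure D5:**
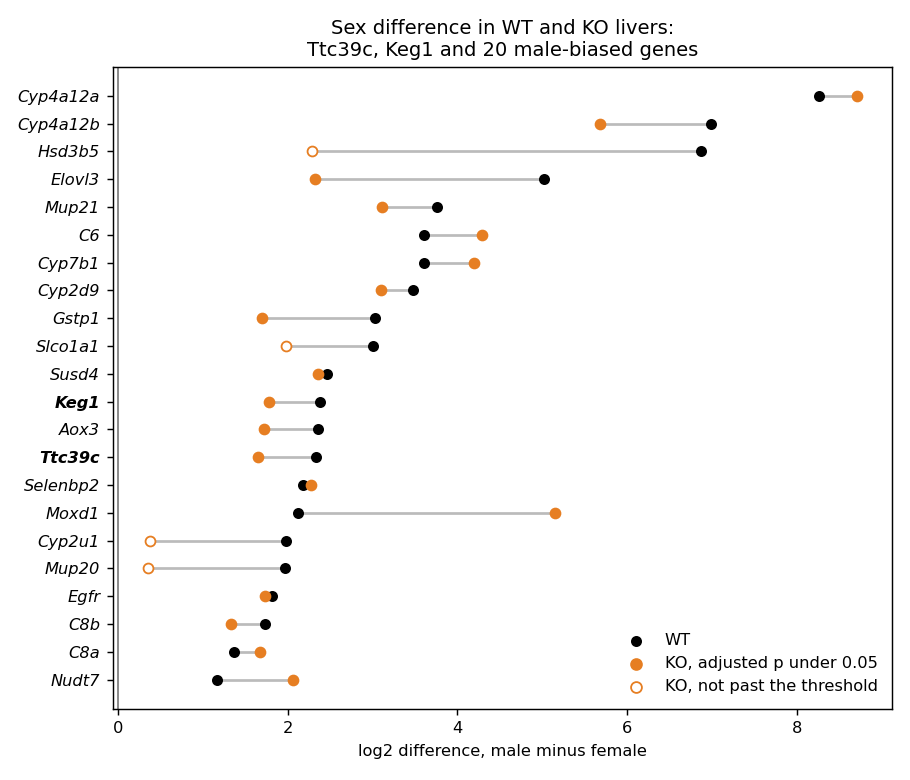
Male minus female log2 difference in WT (black) and KO (orange) livers for Ttc39c, Keg1 (both bold) and the 20 tested male-biased genes, ordered by the WT value, with KO points filled where the limma adjusted p is under 0.05. Ttc39c (2.33 in WT and 1.65 in KO) and Keg1 (2.38 and 1.78) lie between Selenbp2 and Susd4 in the WT order, and the KO point is filled for both. The points of Cyp4a12a, Cyp4a12b, Elovl3, Susd4 and Moxd1 depend on the offset of 16, since most or all females were below detection. All of these genes passed the filter through the males, so their filled points carry no test. Elovl3 and Moxd1 were detected in no female.

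Of 19 genes of growth hormone signalling and regulators of sex bias, 13 were tested. Tox and Esr1 were called higher in KO females, where 1.39% of all genes were, though the call of Tox carries no test. Tox, a nuclear protein of the high mobility group box family, averaged 86.5 ± 27.1 (SD, n = 5) in KO females and was detected in no male, so it passed the filter through the females alone and was at least 3.95-fold higher in KO females. Esr1, the estrogen receptor alpha, differed by -0.84 (adjusted p = 0.0192). Of 16 genes taken as targets of RXRα heterodimers, 11 were tested. Cyp8b1, the sterol 12-alpha-hydroxylase of bile acid synthesis, rose in KO males by 0.95 (adjusted p = 0.0327), where 0.919% of the genes were higher. Cyp4a14, a target of PPARα, in KO females fell by 4.21 (adjusted p = 0.0031), where 1.09% of the genes were lower. The median KO minus WT difference of these targets was -0.01 in males, where that of all genes was 0.02, and -0.55 in females, where that of all genes was 0.

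The genes next to the pair on their chromosomes were read for comparison, taking 3 with a probe on each side in the RefSeq annotation of GRCm38.p6. Ttc39c lies on chromosome 18 and Keg1 on chromosome 19. Beside Ttc39c, Cabyr, known from the sperm tail, was detected on 3 arrays, all of them male. It averaged 22 ± 24.2 and 59.6 ± 71 in WT and KO males (SD, n = 3 each), and -0.252 ± 8.77 and 0.372 ± 3 in females (SD, n = 5 each). Cabyr passed the filter through the males alone, so no test of its sex difference is given. Osbpl1a, an oxysterol-binding protein relative, averaged 271 ± 39.2 (SD, n = 3) and 145 ± 17.1 (SD, n = 5) in WT males and females, a difference of 0.83 (limma, adjusted p = 0.0125), and differed by 0.38 in KO livers (adjusted p = 0.334). Npc1, the lysosomal cholesterol transporter, and Rmc1 and Impact had KO sex differences of 0.54, 0.20 and 0.01 (adjusted p = 0.536, 0.698 and 0.995), and Ankrd29 was not detected. Beside Keg1, Olfr1442 and Cntf were not detected, and Olfr1443, Zfp91, Lpxn and Glyat had KO sex differences of 0.20, -0.09, -0.16 and 0.30 that did not pass (adjusted p = 0.804, 0.863, 0.856 and 0.42).

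Over all 16 arrays the genes most like Ttc39c by Pearson correlation of log2 values were Gstp1 (0.964), Cyp4a12b (0.95), Eif2s3y (0.944), Cyp4a12a (0.927) and Mup21 (0.925). Those most like Keg1 were Cyp4a12a (0.951), the Y-linked genes Eif2s3y (0.94) and Kdm5d (0.938), Cyp4a12b (0.925) and Cyp7b1 (0.923). The correlation of Ttc39c with Keg1 was 0.909. These values are descriptions that carry the difference between the sexes, which all the arrays share. Once each group's mean was subtracted, the correlation of Ttc39c with Keg1 over the 16 arrays was 0.064. By the same measure Ttc39c was then closest to Psmd9 (0.873), Zfyve19 (0.839), Il6st (0.835), Tmem181c-ps (0.823) and Nampt (0.816). Keg1 was closest to Ttpal (0.927), Farsb (0.908), Nsd3 (0.892), Rrp15 (0.889) and Dhx30 (0.889). These genes were picked as the highest among all tested genes on 16 arrays, so their values are high by that choice and carry no test.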

How the data were processed

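Deposited values were used as they stood: the authors' intensity for each of 45281 probes, background-subtracted and normalized between arrays, on a linear scale. The submitters' processing notes name lumi, and its version is not given in the sources used here. A second table, of non-normalized signals, was not used, because its 32 columns could not be tied to samples by name. Probes were named by the array annotation. Negative values were raised to 0 and log2 was taken after an offset of 16, so changes of dim probes are understated. A probe was detected above 3 times the root mean square of an array's values below 0. Of 34885 probes of 1 gene, 14946 detected on at least 3 of 16 arrays were kept, and the brightest represented each of 9906 genes. Groups were compared with limma 3.58.1 in R 4.3.3 (lmFit, eBayes, 4 group means, 12 residual degrees of freedom), with Benjamini-Hochberg adjustment over all genes and a threshold of 0.05. The script was tested on simulated data. Values had been normalized to near-equal distributions, so the number of arrays limits the precision.

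The study's methods point to another deposit for its arrays, and the WT arrays used here were taken as its livers. The genes, their lists and the comparisons were chosen with earlier results of these data known. Named genes were Ttc39c and Keg1 with all probes, Rxra, Xist, their families, up to 3 passing members of each list with the largest difference, the 3 nearest genes with a probe on each side and the 5 most correlated genes. Baat, Hsd3b5, Slco1a1, Mup20, Cyp2u1, C6, Cyp7b1, Mup21, Pecam1, Alas2, Slc12a3 and Lrp2 were named after their values were seen. Clec4g, Stab2, Kdr, Hba-a1, Umod, Slc34a1, Kap, Alb, Apoa1, Ttr, Egfr, Selenbp2 and Susd4 were also named outside these rules. Alternatives were other offsets (4 and 50), probe choices, normalizations, arrays, weights, a replicate block, the methods' t-test (equal variance, as the study's table titles name a t-test) and each array left out. No pair of arrays were copies of 1 library (closest pair r = 0.9848).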

Additional observations from a re-analysis of the deposited data

How the results depend on the processing

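The KO sex difference kept its direction under every alternative run, from 1.48 to 1.94 for Ttc39c (leaving aside the dim probe ILMN_1216935, detected in no female) and from 1.61 to 1.95 for Keg1 (log2), and passed under all but the methods' t-test, which gave the same differences (1.65 and 1.78) with adjusted p = 0.0686 and 0.0812. With each array left out in turn it was 1.48 to 1.94 for Ttc39c (limma adjusted p from 2.3e-05 to 0.00299) and 1.61 to 1.95 for Keg1 (0.00017 to 0.00758). Ttc39c in males (KO minus WT) passed with array weights alone (-0.81, adjusted p = 0.0147, against 0.0147 to 0.493 over all alternatives). Ttc39c in females (KO minus WT), near 0, turned positive with probe ILMN_1216935 (0.45, no female array detected), with the mean of the probes (0.0618) and without female WT 2 or 3 or female KO 6 or 8 (leave-one-out range -0.103 to 0.081). By that probe the fitted WT difference of Ttc39c was 2.76, a value that depends on the offset.

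Counts of called genes moved more. They were 504 (KO sex difference), 1615 (KO minus WT in males), 42 (interaction) and 1409 (WT sex difference) with array weights. With the groups compared alone, KO minus WT in females gave 137 and the WT sex difference 172. The latter gave 579 with each probe as its own row, and the interaction 5 with an offset of 4. The methods' t-test gave 75, 0, 82 and 129 after adjustment at 0.05 for the KO sex difference, KO minus WT in males, KO minus WT in females and the WT sex difference. At 1.5-fold and p of 0.1, the study's thresholds, it gave 848, 1010, 549 and 908 before adjustment and 176, 0, 125 and 200 after. With each array left out the counts were 117 to 277 (KO sex difference), 81 to 199 (KO minus WT in males), 162 to 241 (KO minus WT in females), 3 to 9 (interaction) and 169 to 400 (WT sex difference). The lowest counts came without male KO 5, male WT 2, female KO 6 and male WT 3, the last for both interaction and WT. The cause of these moves was not tested.

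Arrays of WT males and females that share a replicate number were not taken as pairs (correlations of their deviations 0.098, 0.261 and 0.075). With the replicate number as a random block, the KO sex difference was 1.65 for Ttc39c (adjusted p = 0.000176) and 1.77 for Keg1 (adjusted p = 0.000616), with 234 genes called, and the block changed no call for either gene. As a fixed block over WT arrays it gave WT differences of 2.25 and 2.51 and 76 called genes. The KO sexes share 1 number, so no fixed block was possible there. Groups of 3 male arrays and the dim probe ILMN_1216935 limit what these values can resolve.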
